A study of Mus musculus with 11 samples.

Results

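The potassium channel genes of FACS-isolated astrocytes were compared across 4 brain regions. All genes whose symbol begins with Kcn were taken, which gave 98 of the 24421 entries listed for each sample. RNA had been sequenced from eGFP-positive cells of 16-week-old BAC Aldh1l1–eGFP mice of both sexes on a C57BL/6 background. There were 3 samples of the olfactory bulb (OB), 3 of the hippocampus (HC), 2 of the cortex (CX) and 3 of the brainstem (BS). No treatment is given, and the labels separate the groups by region alone. The reporter marks cells that use the Aldh1l1 regulatory sequence of the transgene, and the sort retained every cell bright enough to pass the gate. The labels do not say whether samples came from separate animals, so the p-values measure the spread between these samples, which may be in part technical.

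Potassium channels set the resting potential of astrocytes close to the potassium equilibrium potential and let these cells take up potassium released by active neurons. Inward rectifiers of the Kcnj family and two-pore leak channels of the Kcnk family carry most of this conductance in astrocytes. Voltage-gated subunits (Kcna, Kcnb, Kcnc, Kcnd, Kcnh, Kcnq and the electrically silent Kcnf, Kcng, Kcns and Kcnv subunits) are better known from the repolarization of neurons. The Kcnma and Kcnn channels open with intracellular calcium and the Kcnt channels with sodium, whereas Kcnab, Kcne, Kcnip and Kcnmb proteins are auxiliary subunits.

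Between 2830746 and 14151670 reads per sample were recovered from the deposited normalized values, with a median of 5552215. A single read corresponded to a normalized value between 0.367 and 2.105. All 9 astrocyte markers checked, Aldh1l1 and Gfap among them, were detected in every region. Their summed value was highest for CX samples (558103 and 632486), lay between 272768 and 464142 for HC and between 231884 and 277514 for OB samples, and ranged most widely for BS samples, from 94840 to 280934. Slc1a2 was the largest part of this sum in every sample, at 541892 in the first CX and 169532 in the first OB sample. In the CX, Slc1a2, Slc1a3, Gja1 and Sox9 lay above all other samples. Gfap, in contrast, was at 889 and 1309 in the CX and at 3168 or more in the OB and HC. Slc1a3 lay below all other samples in the BS. The sum is thus no plain measure of astrocyte content. The ribosomal precursor Rn45s took 0.966% to 2.93% of the summed value of each OB and HC sample and 18.0% to 25.6% of each CX and BS sample, so that a difference between these pairs of regions cannot be told apart from it, whereas OB against HC and CX against BS are comparisons at like Rn45s shares. Markers of other cells were detected too. The sum of 8 oligodendrocyte markers lay between 52260 and 89909 in the BS and between 9501 and 39771 in the other regions. The sum of 12 choroid plexus markers ranged from 77149 to 368129 for BS and from 106096 to 219938 for HC samples, but only from 3398 to 8458 for CX and from 2522 to 2998 for OB samples.

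The 98 members comprised 40 voltage-gated subunits, 15 inward rectifiers, 14 two-pore channels, 8 calcium- or sodium-activated channels, 16 auxiliary subunits and 5 other entries, chiefly antisense and noncoding transcripts that carry a Kcn symbol. Of these, 66 passed the filter on low counts and were tested. The 32 others included 8 with no read in any sample (Kcna7, Kcna10, Kcne1, Kcne3, Kcnj15, Kcnk16, Kcnmb3 and Kcnmb4os1) and 3 with 10 reads or fewer over all samples. The remaining 21 had at most 63 reads in all, reached by Kcna3, and the highest value among the untested genes in any sample was 18.0, for Kcnk9. These genes were not detected well enough for a comparison, which does not show that they were absent.

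The 250 bases upstream of an annotated start are shown for 4 members that stood apart in the BS, because the values described further on turn on them. Kcnk2, Kcnf1 and Kcnj4 were low in the BS, and Kcnd2 was high there. The sequences are from RefSeq (GRCm38), 5′ to 3′ on the strand of the gene, and capitals mark the core of the nuclear factor I site, TTGGCA, searched on both strands.

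Kcnk2 promoter, chr1:189402274-189402523, minus strand: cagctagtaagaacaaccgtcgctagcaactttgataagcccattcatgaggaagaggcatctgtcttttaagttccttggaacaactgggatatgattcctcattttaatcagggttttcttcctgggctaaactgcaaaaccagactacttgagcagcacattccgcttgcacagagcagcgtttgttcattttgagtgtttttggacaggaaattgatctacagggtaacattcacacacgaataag
Kcnf1 promoter, chr12:17176889-17177138, minus strand: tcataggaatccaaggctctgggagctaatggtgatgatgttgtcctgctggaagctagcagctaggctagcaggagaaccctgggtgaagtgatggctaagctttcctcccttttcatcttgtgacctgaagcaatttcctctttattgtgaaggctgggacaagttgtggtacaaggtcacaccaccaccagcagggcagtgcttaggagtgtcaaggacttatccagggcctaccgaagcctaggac
Kcnj4 promoter, chr15:79505242-79505491, minus strand: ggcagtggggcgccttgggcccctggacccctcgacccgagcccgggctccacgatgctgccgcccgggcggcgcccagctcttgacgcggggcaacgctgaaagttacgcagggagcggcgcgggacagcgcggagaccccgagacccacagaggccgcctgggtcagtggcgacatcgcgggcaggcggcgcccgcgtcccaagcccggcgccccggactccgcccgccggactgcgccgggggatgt
Kcnd2 promoter, chr6:21215096-21215345, plus strand: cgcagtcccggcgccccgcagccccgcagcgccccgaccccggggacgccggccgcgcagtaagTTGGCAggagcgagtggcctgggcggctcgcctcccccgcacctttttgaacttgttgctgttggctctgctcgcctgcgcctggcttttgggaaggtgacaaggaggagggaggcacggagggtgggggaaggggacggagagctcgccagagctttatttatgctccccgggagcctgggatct

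The sequence TTGGCA was found in 9 of the 97 Kcn promoters matched, which belonged to 72 genes, and in 12.3% of all 32851 promoters of this length. Of the 4 windows shown, only that of Kcnd2 held it, and 1 of the 3 other annotated starts of Kcnk2, with the window chr1:189343708-189343957, held it too. The homeodomain core TAATTA was in none of the 97 Kcn promoters and in 4.84% of all promoters. GC content of the 4 windows differed widely, from 42.4% for Kcnk2 to 77.2% for Kcnj4, against a median of 52.4% over all promoters. Kcnk2 has 4 annotated starts and the outermost is shown. Which start was in use was not measured, and a match of letters does not show that a factor binds.

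To find members that differed anywhere among the regions, the 4 region means were compared with limma's moderated F test on log2(value + 1). Of the 66 tested Kcn genes, 34 (51.5%) differed at an adjusted p under 0.05, against 16.5% of all 13875 genes tested. The 34 genes were 17 of the 28 tested voltage-gated subunits, 5 of the 7 calcium- or sodium-activated channels, 4 of the 11 inward rectifiers, 3 of the 7 two-pore channels, 4 of the 11 auxiliary subunits and the noncoding transcript Kcnq1ot1. At an adjusted p under 0.01 there were 20, against 9.15% of all genes. Kcnj10, Kcnk1, Kcnk2, Kcnn3, Kcna2, Kcnd2 and Kcnd3 were among the 34, whereas Kcnj16 (adjusted p = 0.463) and Kcnip3 were not. In bulk RNA of sorted cells, fewer cells of a type and less RNA per cell cannot be told apart, here and in all values that follow.

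**Figure D1:**
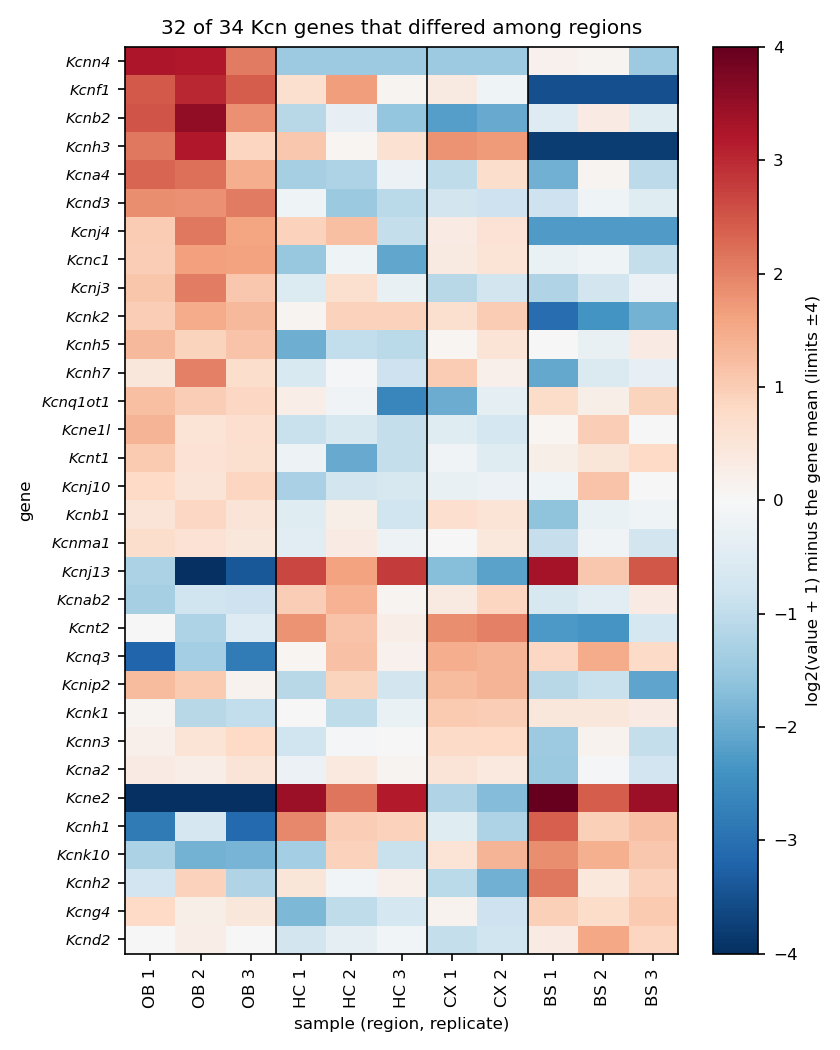
Each row is 1 of 32 of the 34 Kcn genes that differed among the regions and each column 1 of the 11 samples. Colour gives log2(value + 1) minus the gene's mean over samples, with limits at ±4. Kcnn4, Kcnb2, Kcna4 and Kcnd3 were high in the 3 OB samples, Kcnf1, Kcnh3 and Kcnj4 were at 0 in the 3 BS samples, and Kcne2 was low in the OB and CX.

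Set against the other regions pooled, the OB held 11 Kcn genes that were higher and 8 that were lower under the study's cut-offs of p under 0.01 and a fold over 1.5, with p taken here as unadjusted. These were 28.8% of the 66 tested, against 8.04% of all genes tested (4.15% higher and 3.89% lower). For the HC, 7 Kcn genes were lower (10.6%) and none was higher, against 1.28% of all genes (0.281% higher and 1.00% lower). The CX had a single lower member (1.52%), against 2.77% of all genes (1.02% higher and 1.74% lower). The BS held 3 that were higher and 9 that were lower (18.2%), against 9.03% of all genes (3.98% higher and 5.05% lower). The share of Kcn genes that were higher in the BS, 4.55%, was near that of all genes and is no result about the members. In the CX the share of Kcn genes called in this pooled comparison was thus no larger than the share of all genes. That did not hold with a mean for each region in place of pooled samples. There 6 Kcn genes were higher and 8 lower in the CX (21.2%, against 7.72% of all genes). For the HC 5 were then higher and 9 lower (21.2%, against 4.80%).

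With an adjusted p under 0.05 and the same fold, 6 higher and 5 lower members were left in the OB, against 4.54% of all genes (2.55% higher and 1.99% lower). The BS kept 1 higher and 5 lower members, against 5.31% of all genes (1.96% higher and 3.35% lower). None was left for HC or CX by limma, against 0.00% and 0.0144% of all genes, although 14 and 10 Kcn genes had an unadjusted p under 0.05. At the adjusted threshold edgeR called none for the HC and DESeq2 5, and both called none for the CX. The shares of all genes were not taken for the counts at an unadjusted p under 0.05 or for those of edgeR and DESeq2. These counts are therefore no result about the members.

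The order of the single samples, taken from the same values, gave a similar picture for OB, HC and BS but not for the CX. For 10 tested Kcn genes every OB sample lay above every other sample and for 4 every OB sample lay below, against 4.93% and 3.24% of all genes tested. The HC had none above and 4 below (0.505% and 1.03% of all genes), and the CX, with only 2 samples, 6 above and 3 below (5.02% and 3.15%). The BS had 3 above and 6 below (3.70% and 4.19%).

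The median log2 fold change of the tested Kcn genes was 0.51 in the OB, against 0.02 for all genes. For HC, CX and BS it was −0.26, −0.06 and −0.07. Scaling each sample to its 9 astrocyte markers, chosen after seeing the data, shifted the median of all genes to −0.11, −0.12, −0.47 and 0.61 for OB, HC, CX and BS. Under that scaling 7 Kcn genes were higher and 8 lower in the OB (2.61% and 2.58% of all genes), 5 were lower in the HC (0.944%) and none was called in the CX (2.18%). In the BS 8 were higher and 4 lower, against 15.7% and 1.61% of all genes, so that the share of Kcn genes that were higher, 12.1%, was below that of all genes. The split between higher and lower members of the BS moved with the shift of all genes. DESeq2 called 2 higher and 5 lower in the CX (4.26% of all genes in either direction), and edgeR 1 higher and none lower.

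**Figure D2:**
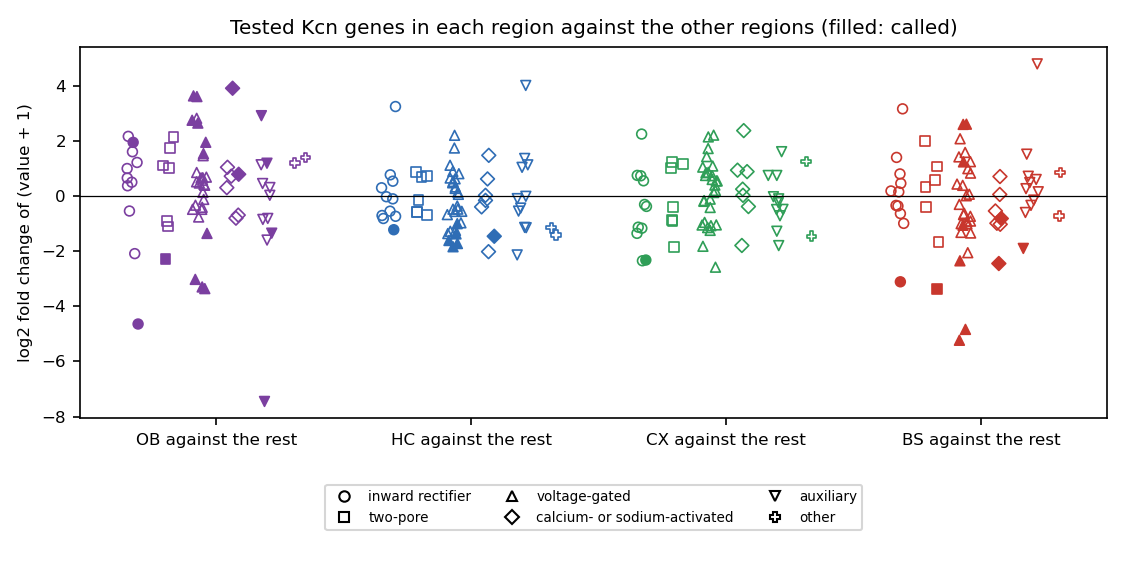
Each point is 1 of the 66 tested Kcn genes, placed by its log2 fold change of (value + 1) in a region against the samples of the other regions, with the shape giving the channel class. Filled points are called at unadjusted p under 0.01 and fold over 1.5. They number 19 in the OB, 7 in the HC, all below 0, 1 in the CX and 12 in the BS.

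Between pairs of regions, 21 Kcn genes were called for OB against HC (31.8%, against 9.92% of all genes), with 15 higher in the OB and 6 in the HC (5.04% and 4.89% of all genes). For OB against BS there were 25 (37.9%, against 15.9%), with 17 higher and 8 lower in the OB (7.91% and 8.01%). OB against CX gave 18 (27.3%, against 8.07%), with 9 in each direction (4.55% and 3.52%). CX against BS gave 17 (25.8%, against 13.5%), with 9 higher and 8 lower in the CX (6.55% and 6.91%). HC against BS gave 15 (22.7%, against 7.60%), with 6 higher and 9 lower in the HC (4.27% and 3.34%). The fewest, 6, were called between HC and CX (9.09%, against 4.69%). At the adjusted threshold 9 were left for OB against CX (4.91% of all genes) and 3 for HC against CX (1.23%).

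With astrocyte scaling the median of all genes itself moved to −0.51 for OB against BS, 0.28 for OB against CX, −0.83 for CX against BS and −0.55 for HC against BS, and the directions of the Kcn genes moved with it. For OB against BS, 10 were then higher and 12 lower (3.03% and 12.5% of all genes), and for OB against CX 10 and 5 (4.43% and 1.53%). CX against BS gave 4 and 16 (1.62% and 16.8%), and HC against BS 4 and 14 (1.51% and 7.90%). For OB against HC, where the median of all genes was 0.01, 14 were higher and 6 lower (3.90% and 3.14%).

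Among the inward rectifiers, Kcnj10 was by far the most abundant member. It encodes the main inward rectifier of astrocytes, which clears extracellular potassium around synapses, and lies on chr1:172341210-172374085. Per kilobase of exon its normalized value averaged 3926 over all samples. The next were Kcnj16 at 551, Kcnip3 at 473, Kcnj13 at 466 and Kcnk1 at 360 per kilobase. Of the summed normalized value of all Kcn genes, which is not corrected for length, Kcnj10 made up 63.8% to 67.5% for OB, 58.3% to 70.8% for BS, 52.5% to 54.8% for CX and 41.3% to 48.7% for HC samples.

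Kcnj10 had OB values of 32855, 26678 and 34048, HC values of 7653, 11324 and 12008, CX values of 15428 and 16110, and BS values of 16722, 41742 and 18939. The 3 HC samples lay below all others, and the second BS sample lay above every OB sample while its 2 partners stayed near the CX. Regions were ordered OB, BS, CX and HC by their means, which were 31194 ± 3956 (SD, n = 3), 25801 ± 13850 (SD, n = 3), 15769 ± 482 (SD, n = 2) and 10328 ± 2342 (SD, n = 3). No neighbours in this order differed at the adjusted threshold (limma, adjusted p = 0.499 for OB and BS, 0.376 for BS and CX, and 0.531 for CX and HC). The OB exceeded the HC by 1.61 on the log2 scale (SE 0.33, limma adjusted p = 0.00652), and the BS exceeded the HC as well (adjusted p = 0.0493), a call lost without the first HC sample at −1.02 for HC against BS.

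Against the other regions pooled, Kcnj10 was lower in the HC by a log2 fold change of −1.22 (SE 0.36), with an unadjusted p of 0.00494 and an adjusted p of 0.653 by limma. The call was lost when any HC sample was left out, with log2 fold changes of −1.02, −1.30 and −1.35, and when low genes were not filtered out. With the values scaled to the 9 astrocyte markers the log2 fold change was −1.36 and the gene was still called (adjusted p = 0.476). The part of the astrocyte share of the samples in the Kcnj10 difference was not tested. Kcnj16 encodes a subunit that forms heteromeric channels with the product of Kcnj10. Its values were 3033, 2055 and 3142 for OB, 988, 1472 and 2183 for HC, 931 and 2633 for CX and 1012, 4065 and 2336 for BS samples. The spread within the CX and BS was wider than the gaps between region means, and no region and no pair of regions was called for Kcnj16.

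**Figure D3:**
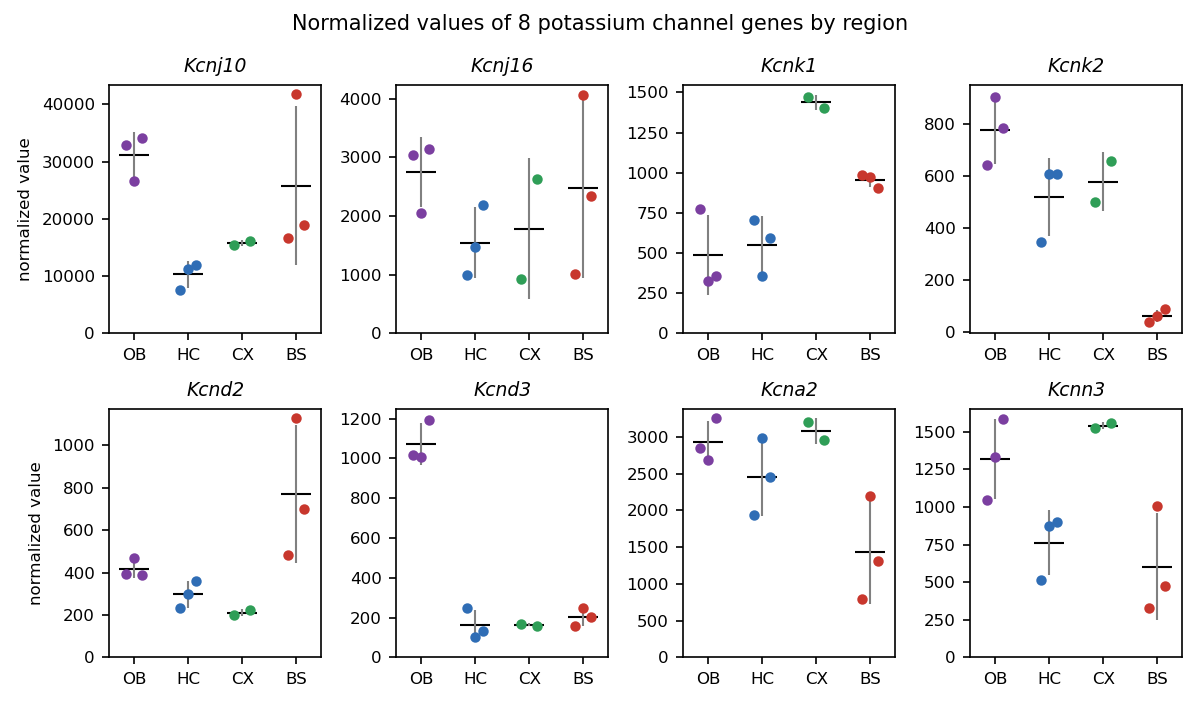
Points are the normalized values of single samples for 8 Kcn genes, black bars the region means and grey lines 1 SD (n = 3, or 2 in the CX), on linear axes that start near 0. Kcnk2 lay between 37.8 and 86.3 in the BS and at 345 or more elsewhere, and Kcnd3 at 1006 or more in the OB and at 250 or less elsewhere.

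Most other inward rectifiers were present at far lower values. Kcnj3, a G protein-gated subunit typical of neurons, had OB values of 232, 442 and 225, HC values of 72.5, 165 and 85.5, CX values of 49.0 and 62.9, and BS values of 45.2, 64.1 and 90.5. The OB samples lay above all others, and the log2 fold change was 1.94 (SE 0.35, limma adjusted p = 0.00538). Kcnj4, a strong inward rectifier of forebrain neurons, was listed at 0 in all 3 BS samples. It had values of 8.69, 19.7 and 13.5 in the OB, 8.12, 10.05 and 1.47 in the HC, and 5.03 and 6.13 in the CX. These are few reads, 94 outside the BS and none within it. With 3 reads over the group as the floor, Kcnj4 in the BS was at least 5.53-fold below the pooled regions (limma adjusted p = 0.0187). The third HC sample, at 1.47, lay below that floor of 1.56. In pairs the OB exceeded the BS (limma adjusted p = 0.00515). The HC and CX did not differ from the BS in Kcnj4 at the adjusted threshold (limma adjusted p = 0.0909 and 0.0745). Floors and counting intervals cover counting error only.

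Kcnj8, the pore of the vascular ATP-sensitive channel and known from pericytes, was the only Kcn gene that limma called in the CX against the pooled regions. Its values were 9.77, 18.2 and 4.85 for OB, 11.2, 5.48 and 7.34 for HC, 0 and 4.60 for CX and 21.0, 18.0 and 12.6 for BS samples. The CX samples lay below every other sample, but the gap between 4.60 and 4.85 was less than the value of 1 read. The log2 fold change was −2.32 (SE 0.76, unadjusted p = 0.00891, limma adjusted p = 0.347), and it was −1.08 and no longer called without the first CX sample. The call was likewise lost without any of 7 samples of the other regions, with values from −2.39 to −2.21. It was also lost with DESeq2 (−2.45) and with edgeR under its alternative normalizations (−2.40 and −2.38). Without the filter on low counts (−2.32) and with astrocyte scaling (−2.55) Kcnj8 was not called either. The Kcn genes that DESeq2 called in the CX were thus others. The sum of 9 mural cell markers ranged from 800 to 1306 in the CX, within the range of 471 to 2257 in the HC, with no marker at 0 in all samples of a region. The part of mural cells in the Kcnj8 values was not tested.

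Of the two-pore channels, Kcnk2 separated the BS from the forebrain regions. It encodes a leak channel gated by membrane stretch, lipids and temperature and lies on chr1:189207930-189402273. Its values were 645, 906 and 787 for OB, 345, 607 and 607 for HC, 499 and 659 for CX and 37.8, 60.1 and 86.3 for BS samples. Every BS sample lay below every other sample, and the BS mean was 10.3-fold lower than the mean of the other samples. The log2 fold change was −3.37 (SE 0.28, limma adjusted p = 8.86e-06), the smallest p of any Kcn gene in the 4 region comparisons. The CX, with a like Rn45s share, exceeded the BS by 3.28 (adjusted p = 1.36e-05). The OB, HC and CX did not differ from each other in Kcnk2 at the adjusted threshold (adjusted p = 0.277 for OB and HC, 0.593 for OB and CX, 0.884 for HC and CX).

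Kcnk1, a weakly rectifying leak channel of astrocytes on chr8, showed another order. Its values were 775, 329 and 360 for OB, 706, 354 and 594 for HC, 1472 and 1404 for CX and 984, 974 and 905 for BS samples. The CX samples were the highest, followed by the BS, with the OB and HC overlapping below them. The Rn45s share divides the samples in the same way, and its part was not tested. The CX exceeded the OB by 1.67 and the HC by 1.44 on the log2 scale (limma adjusted p = 0.00683 and 0.0464), whereas neither CX and BS nor OB and HC, which have like Rn45s shares, differed at this threshold (adjusted p = 0.293 and 0.767). With astrocyte scaling HC against CX was at −1.17 and not called. The BS exceeded the OB (adjusted p = 0.0204), a call that was lost without the second or the third OB sample, with log2 fold changes of −0.85 and −0.91 for OB against BS. The Kcnk1 to Kcnk2 ratio of normalized values, not corrected for length, was 10.5 to 26.0 in the BS samples and 0.363 to 2.95 in the others.

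Kcnk10, a close relative of Kcnk2, had OB values of 5.43, 3.16 and 3.23, HC values of 5.00, 28.3 and 7.34, CX values of 21.4 and 38.3, and BS values of 54.7, 40.1 and 31.6. It was lower in the OB (log2 fold change −2.29, SE 0.67, unadjusted p = 0.00416, limma adjusted p = 0.0726), a call lost without the second or the third OB sample at −2.18 and −2.19. In the BS, where Kcnk2 was lowest, 2 of 3 Kcnk10 values lay above those of all other regions. Kcnk13, known from microglia, stayed between 1.08 and 31.6 over all samples with no call. The sum of 10 microglial markers lay between 1793 and 6238 over all samples.

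Among the voltage-gated subunits, Kcnd3 and Kcnd2, which encode pore subunits of fast inactivating A-type currents, peaked in different regions. Kcnd3, on chr3:105452330-105674002, had OB values of 1016, 1006 and 1195, HC values of 250, 100 and 133, CX values of 168 and 158, and BS values of 158, 250 and 202. The OB values did not overlap the others, and their mean was 6.04-fold that of the other samples (log2 fold change 2.64, SE 0.25, limma adjusted p = 4.8e-05). The OB exceeded each of the other regions taken singly (adjusted p = 1.44e-05 for HC, 0.000131 for CX and 3.19e-05 for BS), and HC, CX and BS did not differ from each other at the adjusted threshold. Exons of Kcnd3, 9587 bases in all, share 165 bases with the antisense Kcnd3os. Since the strand setting of the counting is not stated, reads of that stretch cannot be told apart. Over all samples Kcnd3 had 5909 reads and Kcnd3os 14. Exons of Kcnma1, Kcnh7, Kcnmb4os1, Kcnq1ot1 and Kcnt2 also overlap genes on the other strand, by 1016, 696, 355, 121 and 102 bases. The same holds for the reads of these shared stretches, although Kcnmb4os1 itself had no read in any sample. Kcnh3 shares only 1 base with a gene on the other strand.

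Kcnd2, on chr6:21215503-21729805, had OB values of 392, 468 and 391, HC values of 233, 300 and 360, CX values of 200 and 222, and BS values of 485, 1128 and 701. All BS samples lay above the others, with the first only slightly above the highest OB sample. The log2 fold change in the BS was 1.24 (SE 0.29, limma adjusted p = 0.0245), and without the second BS sample it was 0.92 and no longer called. The BS exceeded the CX and HC (adjusted p = 0.00103 and 0.00721) but not the OB at the adjusted threshold (adjusted p = 0.0505). The ratio of Kcnd3 to Kcnd2 within a sample was 2.15 to 3.06 in the OB and 0.222 to 1.07 elsewhere, again without correction for length.

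Kcna2, a delayed rectifier subunit, had the highest value per kilobase of its class, at 203. It had OB values of 2854, 2691 and 3253, HC values of 1931, 2985 and 2451, CX values of 3207 and 2953, and BS values of 799, 2192 and 1315. The BS was lower by a log2 fold change of −1.06 (SE 0.25, limma adjusted p = 0.023), although its second sample lay above the lowest HC sample. With the values scaled to the astrocyte markers the log2 fold change was −0.45 and not called. The astrocyte sum of the BS overlapped that of the OB and HC and lay below that of the CX, and its oligodendrocyte sum lay above that of every other region, with none of the 8 markers at 0. The part of either in the Kcna2 difference was not tested.

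Several voltage-gated subunits that are typical of neurons were higher in the OB. Kcnc1, which supports fast firing, had OB values of 267, 426 and 418, HC values of 46.8, 120 and 31.2, CX values of 172 and 198, and BS values of 112, 120 and 69.5 (log2 fold change 1.95, SE 0.47, limma adjusted p = 0.0297). Kcnb2, a slow delayed rectifier, had values of 57.6, 119 and 35.6 in the OB and between 1.26 and 12.02 in all other samples (3.60, SE 0.64, adjusted p = 0.00448). Kcna4, an inactivating subunit, had values of 97.7, 90 and 52.8 in the OB and between 4.21 and 30.7 elsewhere (2.75, SE 0.55, adjusted p = 0.00948). For each of these 3 genes all OB samples lay above all others. Between OB and CX, Kcnb2 differed at the adjusted threshold (limma adjusted p = 0.00185), whereas Kcnc1 and Kcna4 did not (0.297 and 0.128). Kcnc2, a relative of Kcnc1 from fast-firing interneurons, stayed between 13.7 and 68.7 with no call.

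Markers of other cells moved with these genes. The summed value of 7 markers of neuroblasts and bulb interneurons lay between 634 and 903 in the OB and between 11.6 and 87.4 in the other regions, with Th at 0 in the CX and Dlx1 and Dlx2 at 0 in the BS. The sum of 5 olfactory sensory neuron markers lay between 270 and 561 in the OB and between 2 and 6.13 elsewhere. For 4 of these markers, Omp, Gng13, Stoml3 and S100a5, all OB samples lay above all others. Omp, Stoml3 and S100a5 were at 0 in the HC and BS, and S100a5 was at 0 in the CX. Cnga2 did not separate the OB, with values of 0, 0 and 1.62 there. It was at 0, 0.913 and 0 in the HC and at 0 in the CX and BS. Of 13 general neuronal markers, Gad1 and Gad2, the enzymes of GABA synthesis, separated the OB upward from all remaining samples, at 301 to 473 against 14.6 to 67.3 for Gad1 and 302 to 391 against 41.5 to 286 for Gad2, while Nefl lay below all others in the OB. The sum of the 13, of which Snap25 was the largest part, overlapped between regions, at 2238 to 3883 for OB, 3131 to 4182 for BS, 2465 to 3142 for CX and 1412 to 2678 for HC samples. The part of these cells in the OB values of the Kcn genes was not tested.

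**Figure D4:**
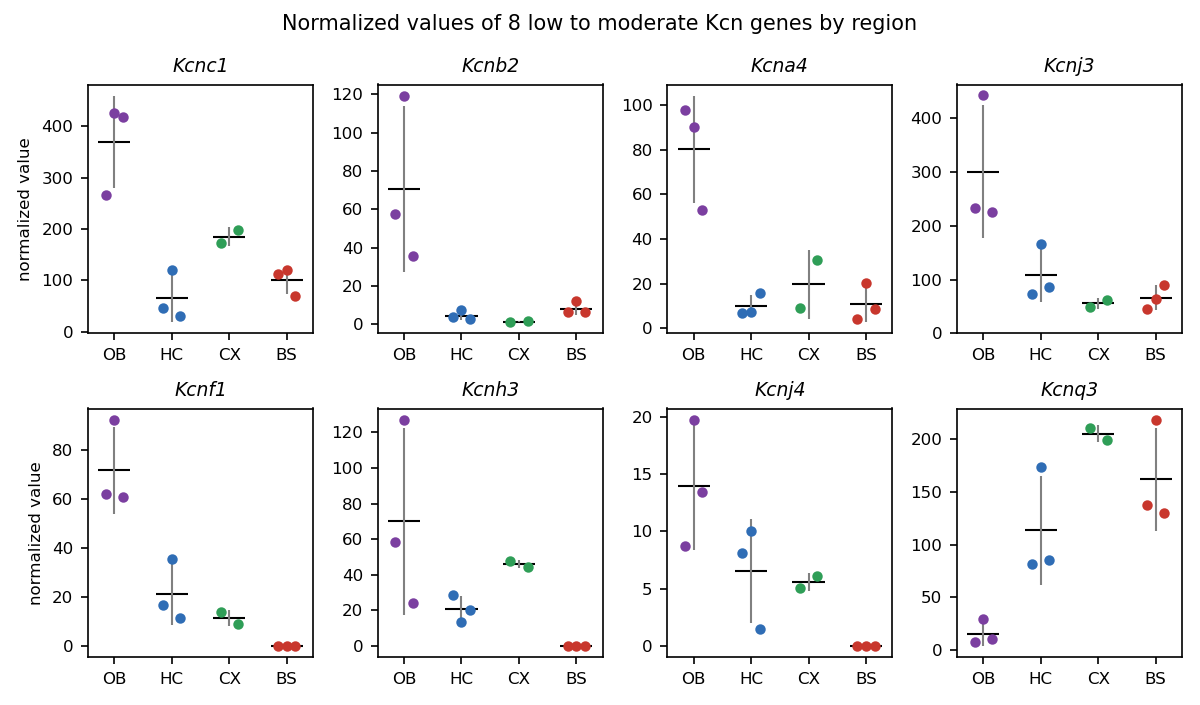
Points are the normalized values of single samples for 8 Kcn genes of low to moderate level, black bars the region means and grey lines 1 SD (n = 3, or 2 in the CX), on linear axes. Kcnc1, Kcnb2, Kcna4 and Kcnj3 were highest in the 3 OB samples, Kcnf1, Kcnh3 and Kcnj4 were at 0 in the 3 BS samples, and Kcnq3 was at 29.2 or less in the OB.

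Kcnq3 and Kcnh1 were lower in the OB. Kcnq3, a subunit of the M-current that restrains repetitive firing, had OB values of 7.60, 29.2 and 10.2, HC values of 81.8, 174 and 85.9, CX values of 211 and 199, and BS values of 138, 218 and 130. All OB samples lay below all others, and the log2 fold change was −3.36 (SE 0.41, limma adjusted p = 0.00034). Kcnh1, an ether-a-go-go channel, had values of 5.43, 27.6 and 4.31 in the OB against 84.8 to 170 for HC, 18.4 and 31.4 for CX and 88.1 to 239 for BS samples (−3.02, SE 0.70, adjusted p = 0.0243). The second OB sample overlapped the CX for Kcnh1.

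Kcnf1 and Kcnh3 were not detected in the BS. Kcnf1 encodes an electrically silent subunit that modifies other channels, and lies on chr12:17172100-17176888. It had values of 61.9, 92.4 and 60.9 in the OB, 16.9, 35.6 and 11.4 for HC, 13.8 and 9.20 for CX, and 0 in all 3 BS samples. Kcnh3, an ether-a-go-go-like channel of the forebrain, had values of 58.6, 127 and 24.2 in the OB, 28.7, 13.7 and 20.2 for HC, 47.7 and 44.5 for CX, and 0 in all 3 BS samples. With 401 and 443 reads outside the BS, Kcnf1 was at least 23.6-fold and Kcnh3 at least 26.1-fold lower there, with 3 reads over the group as the floor (limma adjusted p = 0.00122 and 0.000206). Kcnf1 was also higher in the OB under the study's rule (unadjusted p = 0.0058, adjusted p = 0.0886). Of the 13 general neuronal markers, 3 lay below every other sample in all BS samples and 3 lay above. Those below were Rbfox3 at 40.0 or less against 45.2 or more, Syt1 at 115 to 199.95 against 245 or more, and Slc17a7, the vesicular glutamate transporter of forebrain neurons, at 10.5 to 21.0 against 56.5 or more. Those above were Stmn2, Nefl and Nefm, and no marker was at 0 in a region. The part of neurons in the values of Kcnf1 and Kcnh3 was not tested.

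In the HC all 7 Kcn genes called against the pooled regions were lower, and 5 of them were voltage-gated subunits. Kcnh5, another ether-a-go-go channel, had values of 7.496, 15.5 and 14.7 in the HC, 80.4, 60.0 and 72.2 in the OB, 33.9 and 47.5 in the CX, and 31.5, 26.0 and 40.0 in the BS (log2 fold change −1.84, SE 0.42, unadjusted p = 0.000651, limma adjusted p = 0.344). All HC samples lay below all others. Kcng4, a silent subunit, had values of 34.4, 60.3 and 74.5 in the HC, 213, 144 and 169 in the OB, 134 and 69.0 in the CX, and 235, 204 and 253 in the BS (−1.61, SE 0.37, unadjusted p = 0.00067, adjusted p = 0.344), with an overlap between HC and CX.

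Also lower in the HC were Kcnc4, Kcnc1, Kcnj10 and the sodium-activated Kcnt1, each called at an unadjusted p between 0.002 and 0.00706. Without the second HC sample Kcnc4 was at −0.94 and Kcnt1 at −0.98 and neither was called, and without the third HC sample Kcnc4 was at −0.92. Kcnc1 was at −1.60 without the first and −1.31 without the third HC sample and was then not called, nor was it without any single OB sample or the second CX sample, at −1.71 to −1.56. Leaving out the second or the third HC sample reduced the number of Kcn genes called in the HC from 7 to 4. The share of all genes was not taken for that count.

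Of the calcium-activated channels, Kcnn3, a small-conductance channel, had the highest value per kilobase, at 96.8. Its values were 1045, 1330 and 1581 for OB, 518, 875 and 899 for HC, 1523 and 1556 for CX and 330, 1006 and 471 for BS samples. The CX and OB exceeded the BS (limma adjusted p = 0.0142 and 0.0151), and the HC lay between with overlap. With astrocyte scaling the CX exceeded the BS by 0.70 and was not called. Kcnn4, the intermediate-conductance channel known from blood cells and epithelia, was read almost only in the OB. Its values there were 24.98, 24.5 and 10.8, against 0 in all HC and CX samples and 2.1, 2 and 0 in the BS. With 74 reads in the OB and 3 elsewhere the ratio was 53.6, with a 95% counting interval of 17.7 to 266 (limma adjusted p = 0.00659).

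Kcnma1, the large-conductance channel, was higher in the OB (log2 fold change 0.79, unadjusted p = 0.00969, limma adjusted p = 0.117) and lower in the BS (−0.82, unadjusted p = 0.00664, adjusted p = 0.081) under the study's rule. Neither call held with astrocyte scaling, where the values were 0.66 and −0.21. The OB call was also lost with DESeq2 (0.73) and with edgeR under its alternative normalizations (0.74 and 0.73). The sodium-activated Kcnt2 was lower in the BS (−2.45, unadjusted p = 0.00485, adjusted p = 0.0677).

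Among the auxiliary subunits, Kcne2, together with the inward rectifier Kcnj13, stood apart by the size of its regional differences. Both are known from the epithelium of the choroid plexus. Kcne2, on chr16:92292389-92298129, had OB values of 0, 0.789 and 0.539, HC values of 647, 261 and 542, CX values of 25.1 and 16.9, and BS values of 1450, 321 and 644. The OB and CX lay apart from the HC and BS without overlap. With 2 reads in the OB, the pooled value of the other regions was 1075 times that of the OB, with a 95% counting interval of 297 to 8876 (limma adjusted p = 0.00161).

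Kcnj13 had OB values of 76.0, 3.16 and 16.7, HC values of 1178, 563 and 1286, CX values of 55.3 and 41.4, and BS values of 1862, 389 and 1038 (log2 fold change −4.64 in the OB, SE 1.15, adjusted p = 0.0323). Its highest OB sample overlapped the CX, and without the second OB sample the value was −3.59 and not called. Exons of Kcnj13 overlap those of Gigyf2 on the other strand by 623 bases, so that its reads are uncertain. Kcne2 and Kcnj13 were high in the same 6 samples in which the choroid plexus sum was high. All 12 choroid plexus markers were detected in the HC, CX and BS, and Folr1, Slc4a5 and Tmem72 were at 0 in the OB. The part of choroid plexus RNA in the values of Kcne2 and Kcnj13 was not tested.

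**Figure D5:**
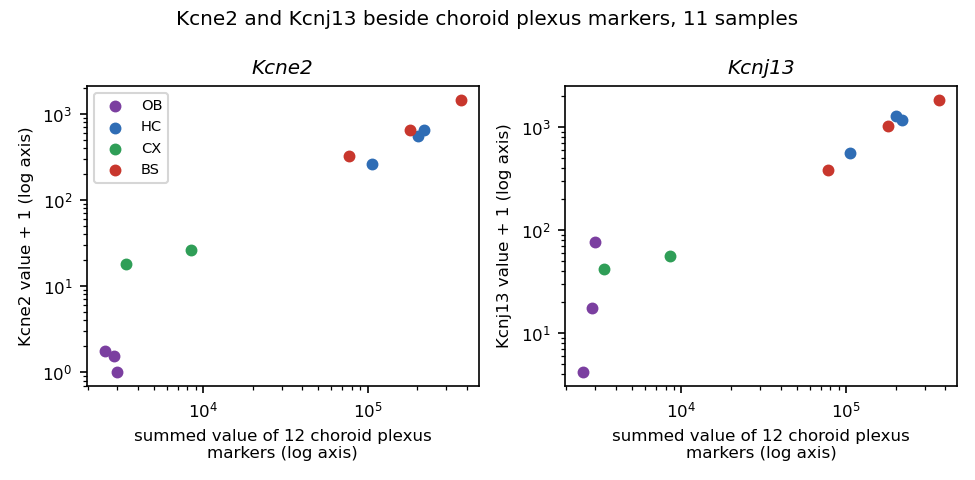
Each point is 1 of the 11 samples. The x axis is the summed normalized value of 12 choroid plexus markers and the y axis the value + 1 of Kcne2 or Kcnj13, both on log axes. The 6 HC and BS samples lie at sums of 77149 or more with Kcne2 at 261 or more, and the OB and CX samples at sums of 8458 or less with Kcne2 at 25.1 or less.

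Kcnip3, a calcium sensor that binds A-type channels and also acts in the nucleus, had values between 902 and 3392, and no region was called against the others pooled. The HC was below the BS under the study's rule (log2 fold change −0.83, limma unadjusted p = 0.00479, adjusted p = 0.0797). That call was lost without the first or the third HC sample or the second BS sample. Kcne1l, now named Kcne5, had OB values of 406, 233 and 251, HC values of 84.3, 100 and 81.1, CX values of 113 and 96.6, and BS values of 165, 315 and 158. It differed between OB and HC by 1.69 and between OB and CX by 1.45 on the log2 scale (limma adjusted p = 0.00189 and 0.0178). The OB and BS overlapped and did not differ at the adjusted threshold (adjusted p = 0.295).

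Calls without an adjusted p under 0.05 were less stable. In the OB these were Kcnf1, Kcnh5, Kcnip1, Kcnma1 and Kcne1l among the higher and Kcnk10, Kcna6 and Kcnab2 among the lower genes, and each was lost without at least 1 OB sample. Without the first OB sample the log2 fold changes were 3.72 for Kcnf1, 1.44 for Kcnh5, 2.32 for Kcnip1, 0.72 for Kcnma1, 0.94 for Kcne1l, −0.90 for Kcna6 and −1.17 for Kcnab2. Kcnh5, Kcnip1 and Kcnma1 were also lost without some single samples of the other regions. Without the second OB sample 12 Kcn genes were called in the OB in place of 19. In the BS the same held for Kcns3, Kcns2, Kcnt2, Kcnma1 and Kcnip2. Without the first BS sample, which had the lowest astrocyte sum of all 11, they were at 2.62, −2.70, −2.19, −0.65 and −2.03, and 7 Kcn genes were called in the BS in place of 12. The shares of all genes were not taken for these counts with a sample left out.

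Other genes of potassium handling were taken from a list of 33 that covers sodium pump subunits, cation-chloride cotransporters, the endfoot complex around Aqp4, Hcn channels and accessory proteins of potassium channels. Of these 28 were tested, and 9 (32.1%) differed among the regions at an adjusted p under 0.05, against 16.5% of all genes. In the OB 5 (17.9%) were called, 4 higher and 1 lower, against 8.04% of all genes (4.15% higher and 3.89% lower). Dpp10, an accessory protein of the A-type channels, had a log2 fold change of 2.29 in the OB (SE 0.55, limma adjusted p = 0.0273), with values of 125, 242 and 95.3 there and between 12.8 and 84.2 elsewhere. Fxyd6, a sodium pump regulator, was higher in the OB (2.43, SE 0.42, adjusted p = 0.0036), with values of 281, 180 and 173 against 16.8 to 85.9. For both genes all OB samples lay above the others.

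The cotransporter Slc12a2 was lower in the OB (log2 fold change −1.502, SE 0.38, limma adjusted p = 0.0349), with values of 404, 324 and 286. It was at 1330, 982 and 1035 for HC, 397 and 547 for CX, and 1956, 855 and 1349 for BS samples, which is the same division of samples as for Kcne2, Kcnj13 and the choroid plexus sum. Slc12a2 is itself abundant in that epithelium, and its part was not tested. Dag1 and Dmd of the endfoot complex were also higher in the OB, with log2 fold changes of 0.61 and 0.68 (adjusted p = 0.0602 and 0.0876).

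In the BS 1 of the 28 was higher and 2 were lower. Their share, 10.7%, was near the 9.03% of all genes called there and is no result about the list. Dpp6, the accessory protein related to Dpp10, had values of 181, 737 and 339 in the BS, where Kcnd2 was high, against 56.1 to 279 elsewhere (log2 fold change 1.71, SE 0.49, limma adjusted p = 0.0561). The first BS sample lay within the range of the OB. Dtna, another protein of the endfoot complex, was lower in the BS (−0.96, SE 0.23, adjusted p = 0.0288), as was Amigo1, a partner of the Kcnb channels (−0.77, adjusted p = 0.0739). In the HC only Lrrc55, an auxiliary protein of the Kcnma1 channel, was called (−2.68, adjusted p = 0.673), which is 3.57% of the list against 1.28% of all genes. In the CX limma called none (2.77% of all genes), with 2 at an unadjusted p under 0.05, for which no share of all genes was taken. There edgeR called none and DESeq2 2 (4.26% of all genes).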

How the data were processed

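Total RNA of sorted cells was amplified with a kit for low input and sequenced in pairs, and per the labels and methods the authors mapped reads to mm10 with STAR 2.5.0a, counted them on UCSC transcripts and normalized them with DESeq2 1.20.0. The deposited values are a normalized signal, each the read count divided by 1 size factor per sample. All non-zero values were whole multiples of 1 step per sample, so that reads could be recovered. Whether counting used the strand is not stated.

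All genes passing edgeR's filterByExpr on recovered reads were fitted two-sided with limma 3.58.1 (R 4.3.3) and its trend option, after log2 transformation with a pseudocount of 1, for each region against the other samples, the 4 region means and the 6 pairs. A gene was called at an unadjusted p under 0.01, a fold over 1.5 and a value over 5 in 2 replicates of a region, and adjusted p-values follow Benjamini and Hochberg over 13875 genes. DESeq2 1.42.0 and edgeR 4.0.16 on recovered reads were alternatives, with other pseudocounts, filters, models and left-out samples. A pseudocount makes fold changes of low genes too small. Scripts were tested on simulated data. The Kcn genes, marker lists and partner list were chosen with earlier results of these data known. Values in every sample were given for members of the rule, for the 8 most abundant members, and for called genes with an adjusted p under 0.05 or otherwise the 3 smallest p. Some members that met this rule are not reported here. Gene coordinates are from GENCODE and promoters from RefSeq, both on GRCm38, and exon length per gene gave values per kilobase. Figures were drawn with matplotlib 3.10.9.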

Additional observations from a re-analysis of the deposited data

How the results depend on the processing

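No call of a named Kcn gene changed direction under the alternatives run. For single genes, 932 of the values under other settings stayed on the same side of the threshold and 94 were weaker, and with a sample left out 1334 stayed and 217 were weaker. A mean for each region in place of pooled samples gave 29 Kcn genes for OB, 24 for BS, 14 for HC and 14 for CX, against 11.4%, 14.1%, 4.80% and 7.72% of all genes under that setting. An adjusted p under 0.05 gave 11, 6, 0 and 0 in that order, and 9 for OB against CX and 3 for HC against CX. Of genes differing among regions, 20 passed an adjusted p under 0.01. DESeq2 called 7 Kcn genes in the CX (4.26% of all genes). Astrocyte scaling gave 0 in the CX and 3 for HC against CX (2.18% and 2.65% of all genes). For the 28 partners a mean for each region gave 8 for OB, 7 for BS, 5 for HC and 4 for CX. The adjusted threshold gave 3 in the OB, 0 in the HC and 1 in the BS, against 4.54%, 0.00% and 5.31% of all genes. Astrocyte scaling gave 2, 3 and 8 in these regions, against 5.19%, 1.07% and 17.3% of all genes. DESeq2 called 5 partners for BS, 2 for HC and 2 for CX, against 10.3%, 3.02% and 4.26% of all genes. The cause of these differences was not tested.

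With each sample left out in turn, Kcn genes called numbered 12 to 19 for OB, 7 to 14 for BS, 4 to 9 for HC and 0 to 3 for CX, and 24 to 36 differed among regions. The shares of all genes were not taken with a sample left out. Such counts are therefore no result about the Kcn genes or the partners. For CX, 0 Kcn genes were called without the second OB or the first CX sample, 2 without the third OB or the first HC sample and 3 without the third HC sample. OB against CX gave 11 without the second CX sample. The pairs ranged from 11 to 20 for OB against CX and 4 to 8 for HC against CX. Partners numbered 2 to 6 for OB, 2 to 5 for BS, 0 to 2 for HC and 0 to 1 for CX. For OB they numbered 2 without the second OB sample and 3 without the third OB or the first BS sample, and for BS 5 without the first or the third HC sample. Lrrc55, the partner called in the HC, was lost without any single OB or HC sample. The deviations of samples with the same replicate number correlated at r between −0.16 and 0.25 (median 0.02, over 15 pairs). Not every pair was over 0.1, so the numbers were not taken to pair the samples. Each OB and HC sample correlated best with the sample of its own number in the other of these regions (0.19, 0.07 and 0.25), which is a hint from the data and not from the labels. With the replicate block 8 named calls were lost and 133 kept. Depth limits members with 3 reads or fewer in the lower group: a bound is given at 0 reads, and above that a ratio with its counting interval.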
